A study of Mus musculus with 8 samples.

Results

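YAP and TAZ, the TEAD factors that carry them to DNA and 4 genes switched on by these complexes were measured in mouse hepatocytes with and without irisin. The set held 10 genes. They were the coactivator genes Yap1 and Wwtr1 (Wwtr1 encodes TAZ), the factor genes Tead1, Tead2, Tead3 and Tead4, and the target genes Ccn1, Ccn2, Ankrd1 and Amotl2. They were chosen by gene name. Every probe that was not a control, and whose accession the RefSeq gene table of GRCm38.p6 assigned to 1 of the 10 genes, was taken. This gave 13 of 39429 probes and 10 of 21608 named genes, with 3 probes for Tead1, 2 for Tead2 and 1 for each of the other 8 genes. All 13 probes were well above background on all 8 arrays, so the filter on dim probes removed no member.

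AML12 is a cultured hepatocyte line from mouse liver, and irisin is a secreted peptide cut from the membrane protein Fndc5. The arrays were made to see which genes irisin changes in these cells. RNA of 4 control samples and of 4 samples given 0.5 µg/ml irisin for 24 h was put on 8 Agilent arrays, 1 sample each, with Cy3 as the only dye. Both groups were the same line, grown in DMEM/F12 medium with fetal bovine serum. The labels do not say whether the samples came from separate cultures, so the p-values cover only the spread between these samples, which may be technical. Each group had its own slide and its own scan, so treatment, slide and scan cannot be told apart. Of 10 hepatocyte markers, 10 were well above background on every array. Of 5 cholangiocyte markers 4 were so too, of 5 endothelial markers 2 and of 5 macrophage markers 2. Of 7 markers of stellate cells and fibroblasts, 5 (Col3a1, Pdgfrb, Des, Lrat and Dcn) had no array on which they were well above background. Pecam1, an endothelial marker with a dim probe, was down-regulated at the 75th percentile (-0.61, adjusted p = 0.00214 from limma) and came out at 0.13 in unscaled values.

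Values are processed signals on a log2 scale, with each array's 75th percentile set to 0, and a difference is irisin minus control. The irisin arrays were brighter as a whole. Their 75th percentile ran from 682 to 850 in arbitrary units of signal, against 372 to 534 on the control arrays. The log2 means of this percentile differed by 0.74 (p = 0.0286 in an exact permutation test, two-sided, the lowest value that 4 arrays against 4 can give). Tests were run with limma over 24093 probes, with Benjamini-Hochberg adjustment over all of them. A gene was named up-regulated or down-regulated when its change was at least 1.5-fold with an adjusted p under 0.05, the thresholds of the study's methods. The brightest tested probe stood for its gene. On a bulk array, fewer cells with a transcript and less transcript per cell cannot be told apart.

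YAP and TAZ are transcriptional coactivators at the end of the Hippo pathway. When the kinases Mst and Lats are active they phosphorylate YAP and TAZ, which then stay in the cytoplasm or are degraded. Otherwise the coactivators enter the nucleus and bind TEAD factors, which recognize the DNA letters GGAATG and often act together with AP-1. In the liver the pathway limits organ size, and active YAP moves hepatocytes toward a progenitor or bile duct state. Much of this control acts on the proteins and their location, which arrays of RNA do not measure.

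None of the 10 genes was up-regulated or down-regulated by irisin at both thresholds, where 0.531% and 10.2% of the 14309 tested genes were. With the adjusted p alone, 2 of the 10 genes were higher in the irisin samples, Wwtr1 and Ankrd1, beside 2.65% of all tested genes. Ccn2 alone was lower, beside 17.9% of all tested genes, a direction that turned in unscaled values and with spike-in scaling. The unadjusted p from limma was under 0.05 for 4 genes, 3 of them higher (Wwtr1, Ankrd1 and Tead1). The share of all tested genes under this unadjusted p was not counted, so the 4 genes have no background to be read against. The methods' t-test on the same values also called 0 of the 10 genes at both thresholds, and by its adjusted p 0 were higher and 1, Ccn2, was lower. For 9 of the 10 genes the 95% confidence interval of the change lay within 1.5-fold in both directions (0.58 on the log2 scale). The exception was Wwtr1, whose interval reached 0.76. The median change of the 10 genes was 0.0050, with 5 genes above 0 and 5 below. The median of all tested genes was -0.064, and 36.0% of them lay above 0.

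**Figure D1:**
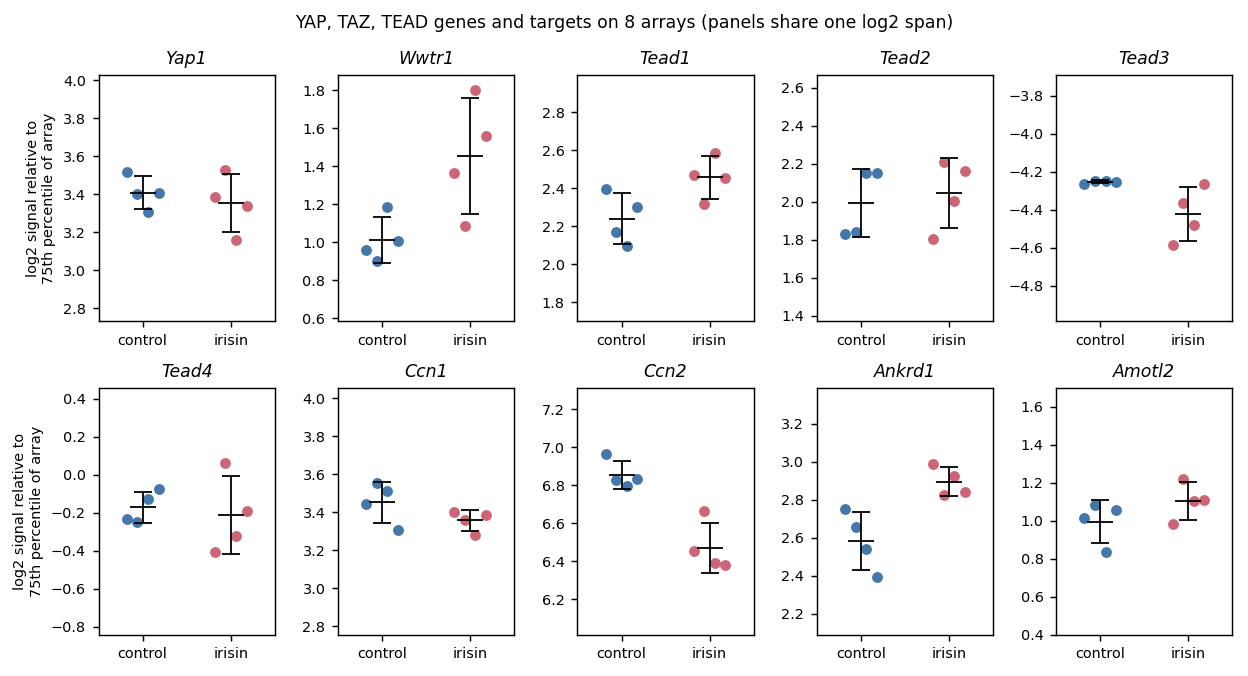
Log2 signal relative to the array's 75th percentile (y axis, each panel spanning the same number of log2 units) for the 10 genes on 4 control arrays (blue) and 4 irisin arrays (red), with the mean and SD of each group in black. The groups did not overlap for Ccn2 and Ankrd1. The other 8 panels show overlap, in Wwtr1 through 1 irisin array.

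The change was -0.055 for Yap1 and 0.44 for Wwtr1. The within-array difference of these 2 coactivator genes overlapped between the groups (exact permutation p = 0.0857). Yap1, the YAP gene, read 3.52, 3.40, 3.31 and 3.41 on the control arrays and 3.39, 3.53, 3.16 and 3.34 on the irisin arrays. The irisin samples lay on both sides of the controls. The means were 3.41 ± 0.0865 and 3.35 ± 0.153 (SD, n = 4 in each group), a change of -0.055 with an interval from -0.27 to 0.16 (adjusted p = 0.748 from limma). The median change of probes with a like signal was -0.054.

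Wwtr1, the TAZ gene, read 0.96, 0.90, 1.18 and 1.01 on the control arrays and 1.37, 1.08, 1.80 and 1.56 on the irisin arrays. Irisin replicates 1, 3 and 4 lay above every control, and irisin replicate 2 lay among them. The means were 1.01 ± 0.121 and 1.45 ± 0.304 (SD, n = 4 in each group). The change was 0.44 (standard error 0.14, interval 0.12 to 0.76, adjusted p = 0.0462 from limma), or 1.36-fold. The exact permutation test gave p = 0.0571. Only 2.27% of all tested probes had a larger change. The spread among the irisin samples was wide, and the adjusted p rose to between 0.0639 and 0.117 when control replicate 1, 2 or 4 or irisin replicate 1, 3 or 4 was left out. It stayed under 0.05 without control replicate 3 (0.0472) and without irisin replicate 2 (0.00572). The change itself stayed between 0.32 and 0.56 with each array left out. Under the 3 settings in which Wwtr1 lost the adjusted p, it was 0.0698 (quantile normalization), 0.0654 (cyclic loess) and 0.120 (the methods' t-test).

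The sequence before the Wwtr1 start is shown because it is the member with the largest change and holds the TEAD letters. The RefSeq window on GRCm38.p6, minus strand, covers the 250 bases before the transcript start at chr3:57575911-57576160, written 5′ to 3′ with GGAATG in capitals.
Wwtr1: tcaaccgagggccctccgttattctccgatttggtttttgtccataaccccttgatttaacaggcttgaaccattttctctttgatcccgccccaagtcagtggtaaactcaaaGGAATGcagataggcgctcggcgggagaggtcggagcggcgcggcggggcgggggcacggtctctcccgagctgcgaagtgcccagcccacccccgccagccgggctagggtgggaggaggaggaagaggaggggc
The capitals stand 136 bases before the start. A second, overlapping window of Wwtr1 holds the same letters.

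The 4 TEAD genes encode the DNA-binding partners of YAP and TAZ, and none of them passed the adjusted p. Tead1 read 2.39, 2.17, 2.09 and 2.30 on the control arrays and 2.47, 2.31, 2.59 and 2.46 on the irisin arrays. Irisin replicates 1, 3 and 4 lay above every control. Its change was 0.22 (interval 0.0044 to 0.43, adjusted p = 0.138 from limma). A second, dimmer Tead1 probe also gave 0.22 (adjusted p = 0.124 from limma), again with 3 of 4 irisin samples above the controls. The third Tead1 probe was among the dimmest decile of tested probes and gave -0.13 with an interval from -0.59 to 0.33, which covers both others. Apart from spike-in and no scaling, the brightest Tead1 probe passed only with normexp background correction, at 0.40 (adjusted p = 0.00121 from limma). With normexp the second probe gave -0.099 and the third -0.54 (adjusted p = 0.417 and 0.0003 from limma). The second probe also passed after quantile normalization (0.34, adjusted p = 0.0251 from limma) and cyclic loess (0.37, adjusted p = 0.0185 from limma).

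Tead2 overlapped fully between the groups, with control samples from 1.83 to 2.15 and irisin samples from 1.81 to 2.21. Its change was 0.053 (interval -0.21 to 0.32), and its second probe gave 0.020. Tead4 overlapped too, from -0.25 to -0.08 on the control arrays and from -0.41 to 0.06 on the irisin arrays, with a change of -0.043 (interval -0.28 to 0.20). The adjusted p was 0.810 for Tead2 and 0.833 for Tead4.

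Tead3 read -4.26, -4.25, -4.25 and -4.25 on the control arrays and -4.59, -4.36, -4.48 and -4.26 on the irisin arrays. The control samples were nearly equal, and 3 irisin samples lay below them. The change was -0.17 (interval -0.36 to 0.024, adjusted p = 0.204 from limma). Tead3 was a dim probe with a mean signal of 30.7, and the median change in its signal decile was -0.15. Its sign moved with the processing, to -0.40 with normexp (adjusted p = 0.00172 from limma) and to 0.069 and 0.096 with quantile normalization and cyclic loess.

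**Figure D2:**
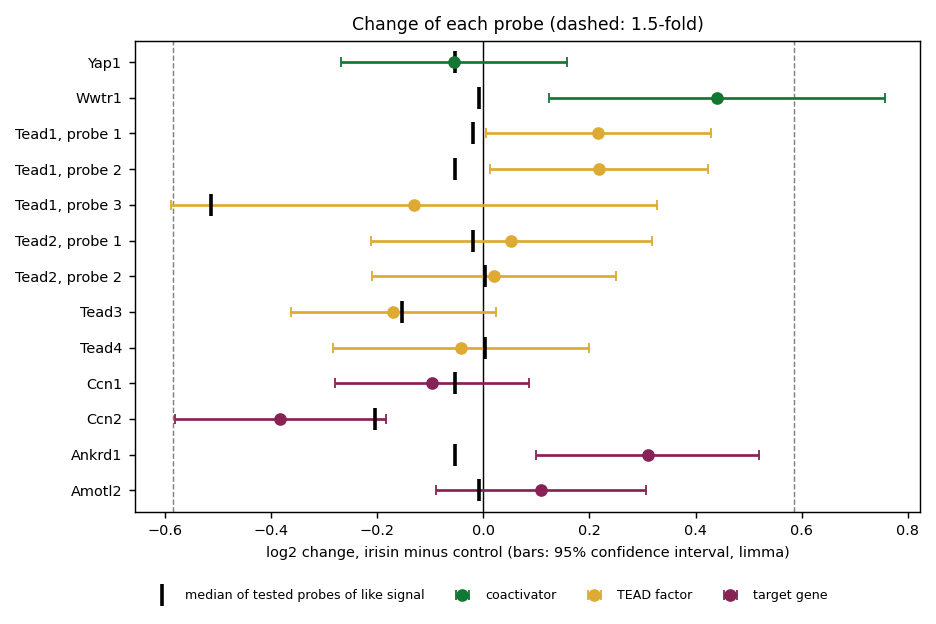
Log2 change, irisin minus control (x axis), of all 13 probes with the 95% confidence interval from limma, coactivators in green, TEAD factors in yellow and targets in purple. Dashed lines mark 1.5-fold, and black ticks give the median change of the decile of tested probes with a like signal. The intervals of Wwtr1, Ankrd1 and the 2 brighter Tead1 probes lie above 0 and that of Ccn2 lies below 0. With spike-in and no scaling the Ccn2 change itself was above 0.

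The targets are genes whose promoters or enhancers TEAD factors bind. Ccn1 and Ccn2 encode secreted matrix proteins, Ankrd1 a nuclear ankyrin-repeat protein, and Amotl2 an angiomotin that binds YAP and holds it back. The RefSeq table held upstream windows for 7 of the 10 genes and none for Ccn2, Tead1 and Tead4. GGAATG, searched on both strands, was in a window of 6 of these 7 genes, with Tead2 the one without. Of all genes in the table, 14.4% had it in a window, and of all 32851 windows 12.6% held it. The AP-1 letters TGANTCA were in no member's window and in 6.75% of all windows. The 3 target windows are shown because they hold the letters that TEAD factors recognize. Each runs 5′ to 3′ over the 250 bases before the start, with GGAATG or its reverse complement in capitals. Their places on GRCm38.p6 are chr19:36119845-36120094 on the minus strand for Ankrd1, chr3:145649986-145650235 on the minus strand for Ccn1 and chr9:102717554-102717803 on the plus strand for Amotl2.
Ankrd1: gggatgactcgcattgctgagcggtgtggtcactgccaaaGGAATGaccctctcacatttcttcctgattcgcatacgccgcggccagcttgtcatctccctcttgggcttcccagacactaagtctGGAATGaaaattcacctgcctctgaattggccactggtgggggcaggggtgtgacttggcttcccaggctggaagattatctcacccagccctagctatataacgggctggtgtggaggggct
Ccn1: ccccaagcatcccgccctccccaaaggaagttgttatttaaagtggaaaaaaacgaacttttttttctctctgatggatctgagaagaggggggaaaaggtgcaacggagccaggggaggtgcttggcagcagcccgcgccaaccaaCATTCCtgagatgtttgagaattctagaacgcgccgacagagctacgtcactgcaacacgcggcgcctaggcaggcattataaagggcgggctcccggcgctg
Amotl2: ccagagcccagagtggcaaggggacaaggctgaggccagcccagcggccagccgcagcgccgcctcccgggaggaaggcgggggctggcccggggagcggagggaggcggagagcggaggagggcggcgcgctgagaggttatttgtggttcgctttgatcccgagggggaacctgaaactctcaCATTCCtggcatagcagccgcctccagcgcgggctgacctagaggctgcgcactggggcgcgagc
Ankrd1 holds the letters at 210 and 123 bases before the start, Ccn1 at 103 and Amotl2 at 65. These matches describe the letters only and say nothing of binding in AML12 cells. Of the 3 genes, Ankrd1 passed the adjusted p, and Ccn1 and Amotl2 did not.

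Ankrd1 read 2.75, 2.66, 2.54 and 2.39 on the control arrays and 2.99, 2.82, 2.93 and 2.84 on the irisin arrays. Every irisin sample lay above every control sample, which held for 4.14% of all tested genes. The means were 2.58 ± 0.153 and 2.89 ± 0.0768 (SD, n = 4 in each group). The change was 0.31 (standard error 0.095, interval 0.099 to 0.52, adjusted p = 0.0362 from limma; exact permutation p = 0.0286), or 1.24-fold. Probes in its signal decile had a median change of -0.054. The direction was the same under every alternative and with each array left out. The change ran from 0.25 to 0.36 with each array left out. It was 0.89 with spike-in scaling, 1.05 with no scaling and between 0.29 and 0.46 under the other alternatives. The adjusted p was lost, at 0.0554 to 0.105, without control replicate 2, 3 or 4 or irisin replicate 1, 3 or 4, and was kept without control replicate 1 (0.0262) and irisin replicate 2 (0.0303). It was also lost with quantile normalization (0.0538) and with the methods' t-test (0.0513).

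Ccn2 read 6.96, 6.83, 6.80 and 6.83 on the control arrays and 6.45, 6.66, 6.39 and 6.38 on the irisin arrays. Every irisin sample lay below every control sample at this scaling, as in 19.6% of all tested genes. The means were 6.85 ± 0.0734 and 6.47 ± 0.132 (SD, n = 4 in each group). The change was -0.38 (standard error 0.090, interval -0.58 to -0.18, adjusted p = 0.00933 from limma; exact permutation p = 0.0286), or 1.30-fold lower. The adjusted p stayed between 0.00209 and 0.0369 with each array left out.

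The direction of Ccn2 depended on how the arrays were scaled. The unscaled signal of its probe was 46323, 55131, 59334 and 56593 on the control arrays and 69725, 69053, 67336 and 70863 on the irisin arrays. Before scaling, then, all irisin samples were above the controls, and the change was 0.36 (adjusted p = 0.0492 from limma). Scaling to spike-in probes gave 0.19, quantile normalization -0.0079 and cyclic loess -0.15, none of which passed the adjusted p. Ccn2 lay in the second-brightest hundredth of the tested probes, and no spot was marked as saturated. The 241 probes of this hundredth had a median change of -0.35 at the 75th percentile, and 43.2% of them had a lower change than Ccn2. Of these bright probes, 67.6% were lower by the adjusted p. The part of probe brightness in the Ccn2 value was not tested. Ccn2 is also made by stellate cells, and their 7 markers summed to 45.2 to 51.3 units of signal on the control arrays and 47.9 to 60.4 on the irisin arrays, before scaling. Of the 2 stellate markers that were tested, Col1a1, a collagen chain, changed by 0.0064 and Col1a2, the other chain of the same collagen, was down-regulated by -1.08 (adjusted p = 0.00293 from limma). Col1a2 was a dim probe with a mean signal of 25.1, and its change was -0.81 after quantile normalization and -0.34 in unscaled values (adjusted p = 0.0305 and 0.0775 from limma). The part of stellate-like cells in the Ccn2 value was not tested.

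**Figure D3:**
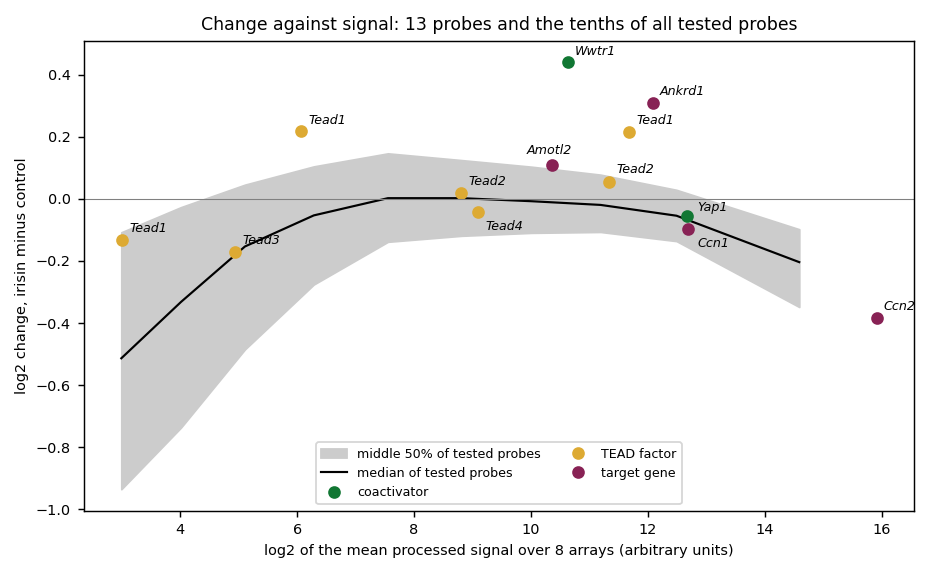
Log2 change, irisin minus control at the 75th percentile (y axis), against the log2 of the mean processed signal in arbitrary units (x axis) for the 13 probes. The black line and grey band give the median and the middle 50% of all tested probes by decile of signal, the median running from -0.51 in the dimmest decile through about 0 to -0.20 in the brightest. Wwtr1, Ankrd1, the 2 brighter Tead1 probes and, narrowly, Amotl2 lie above the band at their signal. Ccn2, whose sign turns with spike-in and no scaling, lies to the right of the bright end of the line, which has turned down there.

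Ccn1 and Amotl2 did not pass the test. Ccn1 read 3.44, 3.55, 3.51 and 3.31 on the control arrays and 3.40, 3.36, 3.28 and 3.39 on the irisin arrays, so that the irisin samples overlapped the lower controls. Its change was -0.097 (interval -0.28 to 0.087, adjusted p = 0.466 from limma). Amotl2 read 1.01, 1.08, 0.83 and 1.05 on the control arrays and 0.98, 1.22, 1.10 and 1.11 on the irisin arrays. For Amotl2, 3 irisin samples lay above every control, and the change was 0.11 (interval -0.090 to 0.31, adjusted p = 0.451 from limma). Of the 4 targets, 2 had changes above 0 and 2 below.

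Scaling moved all 10 genes together. With no scaling the median change of all tested genes was 0.67 and with spike-in scaling it was 0.51, and all 10 members were then above 0. Without scaling 8 of the 10 genes were up-regulated at both thresholds, beside 14920 of the 24093 tested probes. With spike-in scaling 5 of the 10 were, beside 7849 of the 24093 probes. Relative to the median of all tested probes, Wwtr1 was 0.52 higher with the 75th percentile, spike-in or no scaling, 0.43 after quantile normalization, 0.44 after cyclic loess and 0.67 after normexp. On the same relative scale Ankrd1 ran from 0.33 with quantile normalization to 0.63 with normexp, and Ccn2 from -0.30 with the 75th percentile to -0.017 with quantile normalization. Wwtr1 had the highest change and Ankrd1 the next in each of these settings.

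**Figure D4:**
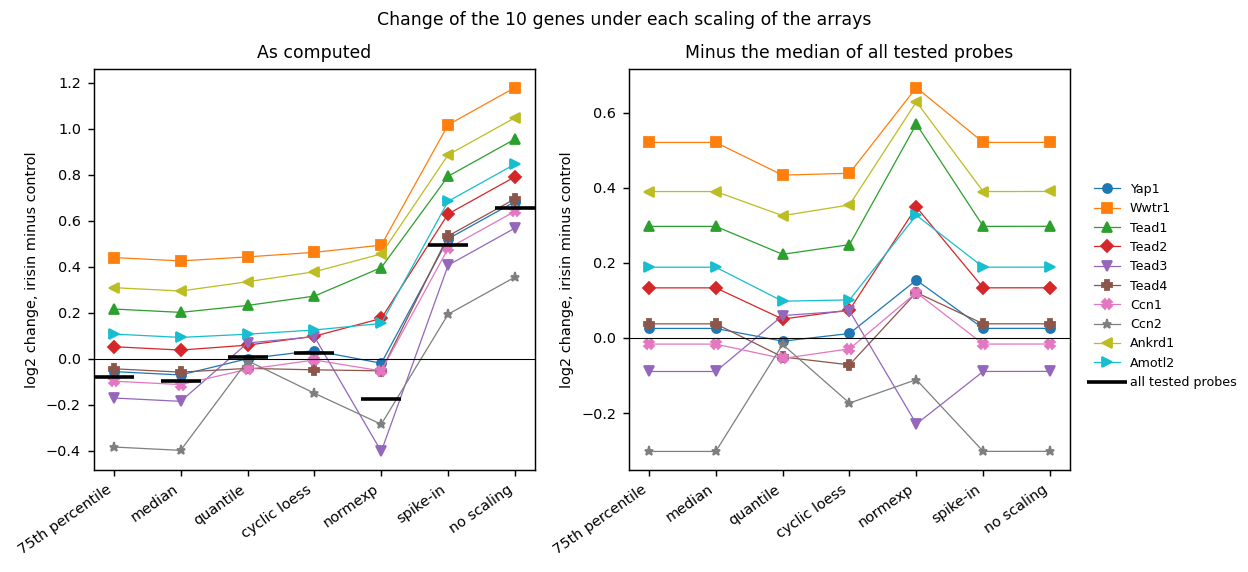
Log2 change, irisin minus control (y axis), of the 10 genes under 7 ways of scaling the arrays (x axis), as computed (left, with the median of all tested probes as black bars) and after subtracting that median (right). All genes move up together with spike-in and no scaling, and Ccn2 moves from below 0 to above it, while Wwtr1 and Ankrd1 stay at the top.

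Differences between 2 genes on the same array do not depend on a constant scaling of that array. All 45 pairs of members were compared in this way, as the change of the log2 ratio of the brightest probes. In 14 pairs, or 31.1%, the groups did not overlap. Among all pairs of tested genes 28.3% did not overlap, so the share among the members was near the background. The largest changes were 0.82 for Wwtr1 over Ccn2 and 0.69 for Ankrd1 over Ccn2 (exact permutation p = 0.0286 for each). Among targets, Ankrd1 over Ccn1 changed by 0.41 with no overlap (exact permutation p = 0.0286). Between the coactivators, Wwtr1 over Yap1 changed by 0.50 with overlap (exact permutation p = 0.0857). After Benjamini-Hochberg adjustment over the 45 pairs the smallest value was 0.0918, so 0 pairs passed.

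The genes upstream of YAP and TAZ moved with the scaling. A list of 33 Hippo kinases, scaffolds and other regulators was tested in full, and at the 75th percentile 0 were up-regulated or down-regulated by limma or by the methods' t-test, beside 0.531% and 10.2% of all tested genes. By the adjusted p from limma 1 was higher and 1 lower, beside 2.65% and 17.9% of all tested genes. By the unadjusted p 2 were higher and 3 lower, for which the share of all tested genes was not counted. With spike-in scaling 17 of the 33 were up-regulated, beside 7849 of the 24093 tested probes, and in unscaled values 26, beside 14920. The median of all tested genes was then 0.51 and 0.67. Quantile normalization and cyclic loess each up-regulated 1 of the 33, beside 670 and 699 probes. Normexp down-regulated 1, beside 3674 probes, with a median change of -0.013 (-0.11 for all tested genes). By the adjusted p from limma with normexp 1 was higher and 8 were lower, for which the share of all tested genes was not counted. At the 75th percentile the median change of the 33 was 0.030. Lats1, a kinase that phosphorylates YAP and TAZ, read -6.33, -6.21, -6.21 and -6.16 on the control arrays and -5.77, -6.11, -5.73 and -5.89 on the irisin arrays. Every irisin sample was above the controls, as in 4.14% of all tested genes. The change was 0.35 (adjusted p = 0.0244 from limma), but normexp turned it to -0.52. It was 0.85 after quantile normalization (adjusted p = 0.00157 from limma) and 0.83 after cyclic loess (adjusted p = 0.00239 from limma), and robust eBayes with a trend lost the adjusted p (0.0826). With each array left out the adjusted p passed in 2 of 8 runs, without control replicate 4 and without irisin replicate 2. Frmd6, an upstream scaffold, changed by -0.45 (adjusted p = 0.0310 from limma) and came out above 0 after quantile normalization (0.095), cyclic loess (0.063) and spike-in scaling (0.13) and in unscaled values (0.29). The Lats1 and Frmd6 probes were in the dimmest decile, where the median change was -0.51. Lats2, the other Lats kinase of the list, had a brighter probe and was named after its values were seen. Its change was 0.16 (adjusted p = 0.2825 from limma), and its dimmer probe gave -0.11. Taok3, a kinase upstream of Mst, changed by 0.29 (adjusted p = 0.121 from limma; -0.074 with normexp), and Btrc, part of the ligase that removes phosphorylated YAP, by -0.24 (adjusted p = 0.183 from limma). Btrc came out at 0.33 with spike-in scaling and 0.49 in unscaled values, and its dimmer probe gave 0.0087.

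Other genes described as YAP, TAZ and TEAD targets moved in both directions. Of 23 such genes 22 were tested, and Rbms3 was well above background on no array. At both thresholds and the 75th percentile, 0 were up-regulated or down-regulated by limma or by the methods' t-test. Cyclic loess up-regulated 3, spike-in scaling 14 and no scaling 18, beside 699, 7849 and 14920 of the 24093 tested probes. Quantile normalization up-regulated 1, beside 670 probes. Normexp down-regulated 1, beside 3674 probes, with a median change of -0.032 (-0.11 for all tested genes). By the adjusted p from limma with normexp 3 were higher and 5 lower, for which the share of all tested genes was not counted. By the adjusted p from limma at the 75th percentile 1 was higher and 3 were lower, beside 2.65% and 17.9% of all tested genes. By the unadjusted p 6 were higher and 4 lower, for which the share of all tested genes was not counted. The median change at the 75th percentile was 0.097. Igfbp3, a secreted binding protein of insulin-like growth factors, read -2.60, -2.44, -2.72 and -2.68 on the control arrays and -2.24, -2.02, -2.02 and -2.06 on the irisin arrays. Every irisin sample was above every control, as in 4.14% of all tested genes. The change was 0.53 (standard error 0.092, interval 0.32 to 0.73, adjusted p = 0.00182 from limma), or under 1.5-fold, and the adjusted p passed with each array left out (0.00197 to 0.00777) and in all alternatives.

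The 3 lower targets were less steady. Myof, which encodes the membrane repair protein myoferlin, changed by -0.38 (adjusted p = 0.0361 from limma) and Birc5, the mitotic survival factor survivin, by -0.29 (adjusted p = 0.0431 from limma). Both came out above 0 in unscaled values (0.36 and 0.45) and against the spike-in probes (0.20 and 0.29). The other Birc5 probes gave 0.016 and 0.090. Asap1, a regulator of Arf proteins that was named after its values were seen, changed by -0.26 (adjusted p = 0.0252 from limma) but by 0.20 on its second probe. Nt5e, an ectoenzyme that makes adenosine, had the next largest increase after Igfbp3, at 0.39 (adjusted p = 0.0635 from limma), with 1 irisin sample among the controls. Nt5e passed the adjusted p after quantile normalization (0.51, adjusted p = 0.0298 from limma) and cyclic loess (0.55, adjusted p = 0.0292 from limma) and turned to -0.12 with normexp.

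Dimmer probes of the pathway genes were not all like the brightest one. Of 23 such probes of Hippo regulators and other targets, 2 passed both thresholds in limma, where 0.714% of all tested probes were up-regulated and 11.7% down-regulated. The genes named next were chosen after their values were seen. The dimmer probe of F3, which encodes tissue factor, changed by 0.77 (adjusted p = 0.00268 from limma), between 0.49 with normexp and 1.51 in unscaled values, and its brighter probe by 0.081. A dimmer probe of Slmap, part of a phosphatase complex that acts on Mst kinases, changed by 0.58 (adjusted p = 0.0173 from limma), under 1.5-fold, and its brighter probe by 0.094.

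**Figure D5:**
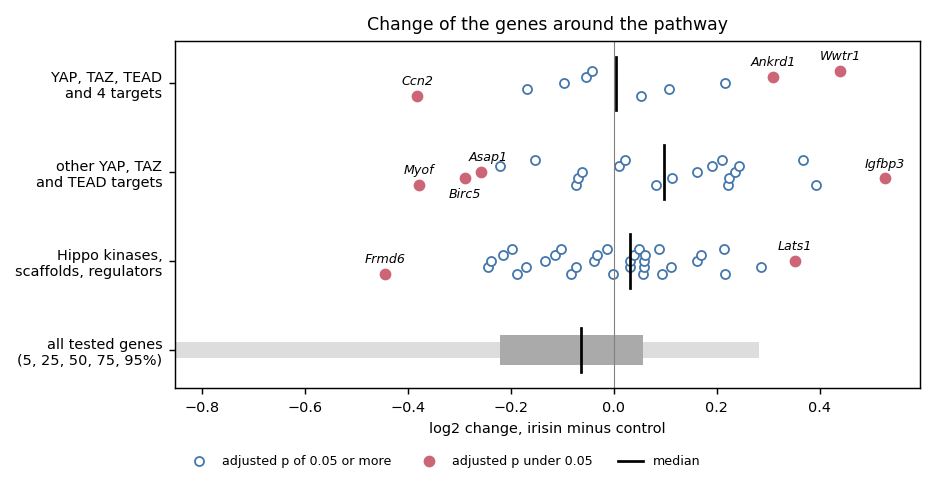
Log2 change, irisin minus control at the 75th percentile (x axis), of the 10 genes, of 22 other targets and of 33 Hippo regulators, 1 point per gene, with medians as vertical lines and genes with an adjusted p under 0.05 from limma filled and named. The lowest bar spans the 25th to 75th (dark) and the 5th to 95th percentile (light) of all tested genes. The points of all 3 lists lie on both sides of 0, and those below 0 include genes that move above 0 with spike-in or no scaling.

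Cofactors that compete with YAP for TEAD and the relatives of Ccn1 and Ccn2 were mostly dim. Of the 4 vestigial-like genes only Vgll4 was tested. It read -3.13, -3.23, -3.46 and -3.38 on the control arrays and -3.16, -2.45, -2.88 and -3.03 on the irisin arrays, with a change of 0.42 (adjusted p = 0.0639 from limma), and 1 irisin sample lay among the controls. The Vgll4 change was 0.52 after quantile normalization (adjusted p = 0.0399 from limma), 0.55 after cyclic loess (0.0364) and -0.044 with normexp, and robust eBayes with a trend gave an adjusted p of 0.0491. Of the 4 other CCN genes 2 were tested. Ccn4 changed by 0.030 (adjusted p = 0.845 from limma), and the dim Ccn5 by 0.43 (adjusted p = 0.0870 from limma) at the 75th percentile, by 0.92 after quantile normalization (adjusted p = 0.0109 from limma) and by -0.52 with normexp (adjusted p = 0.000221 from limma).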

How the data were processed

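RNA of 8 AML12 samples was measured, 4 per group as the labels give it, and the number of arrays limits the precision. The authors labeled RNA with Cy3, scanned the arrays and ran Feature Extraction 12.0.3.1, which subtracts background and corrects spatial trends. The intensity values they deposited are linear and carry no normalization between arrays. Per the file headers, control spots were marked, and these were left out with the spots marked as outliers (at most 0.463% of an array). The log2 intensity minus that of the array's 75th percentile was tested with limma 3.58.1 in R 4.3.3 on probes that 1 group or both had well above background on each of its 4 arrays. Single values also had an exact permutation test, two-sided, over the 70 assignments of arrays. Between 59.5% and 64.1% of probes were well above background on an array.

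Probes were named through the RefSeq table, which matched 72.7% of them. The members and lists were chosen with earlier results of these data known. The lists were written from general knowledge. Named genes are all members and, of each other list of pathway genes, the called genes and the 2 largest increases and 2 largest decreases among the rest. Any other gene was chosen after its values were seen. Results of 1 gene of these lists are not reported here.

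Alternatives were normexp (offset 50), quantile normalization, cyclic loess, scaling to the median or to 8 spike-in probes, no scaling, the deposited value table, marked spots kept, no filter and a stricter filter, a trend with robust eBayes, the methods' t-test, a replicate block, each array left out, other thresholds and the mean of a gene's probes. For normexp the median spot signal was used, and spots with uneven local background were left out, since a few of them broke the fit on irisin replicates 2 and 4. The fit was tested on simulated data. Replicate numbers did not pair the samples. Motifs were searched with Python 3.11.15 and pandas 2.3.3, and plots were drawn with matplotlib 3.10.9.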

Additional observations from a re-analysis of the deposited data

Results flagged for a closer look

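Irisin replicate 1 had 135 spots marked as outliers by the scanner software, against 95 to 99 on the other irisin arrays, a gap of 0.9 of the group's range. The control arrays had 128 to 199. All 13 member probes kept a value on this array. In all, 58 groups of 4 arrays were checked, and chance alone marks about 1 in 20.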

How the results depend on the processing

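The main counts were 172 probes up-regulated and 2816 down-regulated, 0 member genes at both thresholds, 2 higher and 1 lower by the adjusted p, a member median of 0.0050 and a difference of 0.069 from all genes. Normexp gave 54 probes up-regulated, 3674 down-regulated, 2 members lower and a difference of 0.17. Quantile normalization gave 670 and 1021 probes, with 0 members higher and 0 lower. Cyclic loess gave 699 and 926 probes, 1 member higher, 0 lower and a median of 0.098. Spike-in scaling gave 7849 and 361 probes, 5 members up-regulated, 6 higher, 0 lower and a median of 0.58. No scaling gave 14920 and 162 probes, 8 members up-regulated, 10 higher, 0 lower and a median of 0.74. The up-regulated share of called probes was 5.76% with the 75th percentile, 39.6% with quantile normalization, 43.0% with cyclic loess, 95.6% with spike-in and 98.9% with no scaling. With no filter on dim probes 12750 probes were down-regulated and the members' difference was 0.20. The methods' t-test up-regulated 108 probes and left 0 members higher. The adjusted p alone gave 713 and 5197 probes, with 2 members up and 1 down, and a 2-fold threshold gave 23 and 778 probes. With each array left out, 102 (without irisin replicate 3) to 335 (without irisin replicate 2) probes were up-regulated and 2632 to 3052 down-regulated, and 0 to 2 members were higher by the adjusted p.

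Among changes that passed the adjusted p, signs turned for Ccn2 with spike-in (0.19) and no scaling (0.36), for Lats1 with normexp (-0.52), for Frmd6 with quantile normalization (0.095), cyclic loess (0.063), spike-in (0.13) and no scaling (0.29), for Myof with spike-in (0.20) and no scaling (0.36), and for Birc5 with both (0.29 and 0.45). Of changes that did not pass, Yap1, Tead3, Tead4, Ccn1 and Btrc moved above 0 with spike-in and no scaling. Yap1 and Tead3 did so also with quantile normalization and cyclic loess, and Taok3, Nt5e, Vgll4 and Ccn5 moved below 0 with normexp. The causes were not tested. The replicate block left 1 member higher by the adjusted p, Wwtr1 (0.0195), with Ankrd1 at 0.0603, and 1 lower, Ccn2 (0.0281). Correlations of same-numbered arrays ran from -0.35 to 0.17, so the numbers were not taken to pair the samples. The exact test cannot go below 0.0286 with 4 arrays in each group, and the dimmest probes carry the widest intervals.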
